A study of Mus musculus with 70 samples.

Results

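The supraoptic nucleus (SON) of mice bred for high anxiety-related behavior (HAB) was compared with that of mice bred for low anxiety-related behavior (LAB) on 10 arrays, which are all arrays of the 70 whose title names the SON. Both lines were bred from CD-1 mice. The animals were males of 10 weeks, labelled as basal, and had gone through a tail-suspension test a few days before tissue collection. No transgene or drug is named for either line. A single pool of SON RNA stood for each line, made from 6 mice, and both pools shared every array, 5 times with HAB in the green dye Cy3 and 5 times with the dyes swapped (HAB in the red dye Cy5). The other 60 arrays hold the same comparison in the paraventricular nucleus (PVN), the basolateral (BLA), central (CeA) and medial (MeA) amygdala, the nucleus accumbens (NAc) and the cingulate cortex (Cg), 10 arrays each. The 10 SON arrays repeat the hybridization of these same pools, so their spread is technical, and no test over them speaks of the lines beyond these pools. SON tissue was taken on both sides with a needle of 0.5 mm diameter placed at the optic tract, so that neighbouring tissue can be part of a punch, and in such bulk samples fewer cells of a type and less RNA per cell cannot be told apart.

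The SON is a small hypothalamic nucleus made up largely of magnocellular neurons, which produce the peptide hormones vasopressin and oxytocin. Their axons end in the posterior pituitary, where both peptides enter the blood, vasopressin to retain water in the kidney and oxytocin for milk ejection and birth. These neurons lie beside the myelinated fibres of the optic tract, among a dense net of capillaries.

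Each value below is a log2 HAB/LAB, the log2 ratio of the HAB to the LAB intensity of 1 spotted cDNA probe, given as the mean of both dye orientations with the SD over 10 arrays. A probe was counted as different when its mean reached 1.3-fold and all 10 arrays pointed the same way. Of 22824 probes, 141 pointed the same way on all 10 arrays at any size (0.618%). With the threshold on size, 73 were counted as higher in HAB mice (0.32% of the probes) and 54 as lower (0.237%). Restricted to the probes above the empty spots in the line in which they were higher, 66 and 47 remained (0.914% of 12362 probes). A linear model over the arrays (limma, with Benjamini-Hochberg adjustment over all probes and a threshold of 0.05) called 18 of these 127 probes, 14 higher and 4 lower (0.0789% of the probes). Without adjustment 1665 probes had a p below 0.05. The mean ratios of the 2 orientations correlated at r = -0.27 over all 22824 probes (-0.17 over the 12362 probes above the empty spots in either line), and these probes share arrays and dyes. Pairs of arrays correlated at a mean r of 0.11 within an orientation and -0.08 across the 2 orientations. Single arrays had an SD of 0.752 to 0.832 over probes. "Above the empty spots" means a raw signal over the median plus 2 median absolute deviations of the 1170 empty spots of the same array and channel. A probe above them on at least 5 of 10 arrays was taken as above the empty spots in that line. A gene of a list is called measured when the array holds a probe for it, above the empty spots or not.

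The labelled tissue was checked by level, the normalized log2 intensity averaged over both lines, set against the mean of the other 6 regions. Avp, which encodes vasopressin, had its highest level of the 7 regions in the SON, at 9.42 against 9.19 in the PVN and 7.10 to 8.20 in the other 5 regions. Oxt, which encodes oxytocin, passed the empty spots on 2 of 10 arrays in HAB and 4 of 10 in LAB mice, and its level of 8.06 in the SON lay below those of the PVN, CeA and BLA (8.14 to 8.44), so that this probe does not mark the nucleus. Pou3f2, a transcription factor needed for the magnocellular neurons to form, stood at 11.42 in the SON, second to 11.54 in the PVN. Genes of oligodendrocytes, the myelin-forming cells, had a median level 0.68 above the other regions, with 12 of 22 measured genes highest in the SON and 18 of 22 first or second. For all 5229 named genes that median was 0.03, and 781 of them were highest in the SON. The regions were hybridized on separate arrays, so that region and hybridization cannot be told apart in these levels.

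Sequence is shown for the genes on which the results turn, as the 120 bases before the start of each gene in RefSeq's annotation of the build GRCm38.p6, 5′ to 3′ on the gene's strand. These are the beta-globin and Plekhf1 for the largest differences in favour of HAB mice, Avp for the main hormone, and Slc25a17, Glo1 and Tac1 for differences in favour of LAB mice. The array's beta-globin gene Hbb-b1 has no promoter in the sequence table used here, and Hbb-bs, another adult beta-globin gene, stands in its place. Capitals mark the letters TATAA and CCAAT on either strand.
Hbb-bs, chr7:103827929-103828048, minus strand: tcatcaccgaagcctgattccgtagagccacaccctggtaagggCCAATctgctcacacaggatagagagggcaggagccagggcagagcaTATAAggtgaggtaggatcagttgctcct
Plekhf1, chr7:38227995-38228114, minus strand: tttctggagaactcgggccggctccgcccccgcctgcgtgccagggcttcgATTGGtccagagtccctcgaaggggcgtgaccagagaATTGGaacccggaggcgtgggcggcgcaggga
Avp, chr2:130582589-130582708, minus strand: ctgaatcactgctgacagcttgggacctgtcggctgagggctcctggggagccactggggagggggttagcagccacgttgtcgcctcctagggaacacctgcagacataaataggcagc
Slc25a17, chr15:81360766-81360885, minus strand: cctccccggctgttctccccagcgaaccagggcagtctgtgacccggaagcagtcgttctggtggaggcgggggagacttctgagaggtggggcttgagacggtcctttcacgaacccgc
Glo1, chr17:30612660-30612779, minus strand: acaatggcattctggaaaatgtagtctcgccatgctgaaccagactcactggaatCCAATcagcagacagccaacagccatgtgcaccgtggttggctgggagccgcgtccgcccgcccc
Tac1, chr6:7554941-7555060, plus strand: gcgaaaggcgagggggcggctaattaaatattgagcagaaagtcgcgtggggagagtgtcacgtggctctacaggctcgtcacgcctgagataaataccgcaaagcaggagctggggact
TATAA on either strand was present in this window for 11.8% of 32851 promoters, and of the 6 shown only Hbb-bs held it. CCAAT was present in 21.3% of them and in Hbb-bs, Plekhf1 and Glo1 here, on the opposite strand in Plekhf1. The matches are a description of letters, and these are reference sequences rather than those of HAB or LAB mice.

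The largest differences in favour of HAB mice were those of beta-globin and of Plekhf1. Hbb-b1, the adult beta chain of haemoglobin on chromosome 7, had a mean log2 HAB/LAB of 1.88 ± 0.51 (SD, n = 10 arrays) on its brightest probe (number 13531), a 3.68-fold higher signal in HAB mice. On the 5 arrays with HAB in Cy3 its ratios were 1.97, 1.95, 1.54, 1.35 and 1.54, and with the dyes swapped they were 2.36, 2.32, 2.38, 2.42 and 0.96. Every array favoured HAB mice, and the last stood apart from the other 4 of its orientation. The level of this probe was 12.49 ± 0.78 in HAB and 10.61 ± 0.47 in LAB mice (normalized log2 intensity, SD, n = 10), and the limma adjusted p was 0.000173. Both other Hbb-b1 probes were counted too, at 1.62 ± 0.70 (probe 21085) and 1.10 ± 0.77 (probe 12985). The adult beta-globin genes are near-identical, so a cDNA probe cannot assign this signal to 1 of them.

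Other genes of blood cells were not counted. Of 11 measured genes of the blood list, Hbb-b1 alone was counted, and 7 were above the empty spots in either line. Among all 5229 named genes 32 (0.612%) were counted as higher and 21 (0.402%) as lower in HAB mice, and every list count is read against these shares. The blood list median was 0.25, against -0.00 for all named genes. Alas2, the erythroid enzyme that starts haem synthesis, stood at 0.25 ± 0.54 with 7 arrays in favour of HAB mice. Slc4a1, the anion exchanger of the red-cell membrane, stood at -0.08 ± 0.95, and Bpgm, which makes the haemoglobin ligand 2,3-bisphosphoglycerate, at 0.34 ± 0.75. Fech stood at 0.39 ± 0.63 and Lyz2 at 0.19 ± 0.66. Hba-a1, an alpha chain of haemoglobin, stood at 0.44 ± 0.77 with 7 arrays in favour of HAB mice. It passed the empty spots on only 3 arrays in HAB and 1 in LAB mice, so that a difference was not detectable at this signal. Alas2 passed the empty spots on 6 of 10 arrays in HAB and 4 in LAB mice, Slc4a1 on 7 in HAB and 6 in LAB mice. How much blood each punch held was not tested.

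Plekhf1, an endosomal protein that binds phosphoinositides, equalled beta-globin with 1.88 ± 0.63. Its ratios on the 10 arrays ran from 0.94 over a median of 1.76 to 2.94, and its level was 11.89 ± 0.42 in HAB and 10.01 ± 0.34 in LAB mice (limma adjusted p = 0.000299). Htra2, a mitochondrial serine protease, stood at 1.65 ± 0.51, with single arrays between 0.39 and 2.12. Hcst, a signalling adaptor of natural killer and T cells, stood at 1.60 ± 0.44, between 0.82 and 2.24. B130031L15, a hypothetical protein by the array's name, stood at 1.39 ± 0.61, between 0.31 and 2.35. The levels of Plekhf1, Htra2, Hcst, B130031L15 and the 2 brighter Hbb-b1 probes were all highest in the SON of the 7 regions, by 1.13 to 1.43 over the mean of the others. Such a level averages both lines, so a higher HAB signal in the SON, for which these probes were chosen, raises it by itself. Over all 70 arrays the ratios of these 6 probes correlated with each other at r = 0.33 to 0.59 (15 pairs of probes, which share arrays and pools). These probes were chosen for their SON ratios, so a difference between the SON and the other regions that they share enters these values. Within the 10 SON arrays r ran from -0.08 (the 2 Hbb-b1 probes) to 0.83 (Plekhf1 and B130031L15).

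A second group of 4 probes was as much higher in HAB mice but had another pattern over the regions. It holds 2 probes of Rab6, which encodes a small GTPase of Golgi transport, at 1.58 ± 0.52 (probe 15500) and 1.55 ± 0.46 (probe 6292), the RIKEN clone 5730540D15 at 1.51 ± 0.43, and Cnbp, a nucleic acid-binding protein, at 1.41 ± 0.38. Rab6 probe 6292 had 1.07, 1.24, 1.09, 1.03 and 1.23 with HAB in Cy3, but 1.75, 2.13, 1.86, 2.19 and 1.90 with the dyes swapped. Both orientations thus favoured HAB mice on every array without overlapping each other. Both other Rab6 probes were not counted, at 0.44 ± 0.52 (probe 15863) and 0.14 ± 0.66 (probe 23301), and a second Cnbp probe stood at -0.19 ± 0.47. The gene-level difference of Rab6 and Cnbp therefore depends on the probe. Over all 70 arrays the 4 probes correlated with each other at r = 0.36 to 0.78 (6 pairs). They were grouped by their pattern over the regions, which enters these values, and within the 10 SON arrays r ran from 0.32 to 0.63.

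Syt4, a synaptotagmin of secretory vesicles, had the smallest SD of the 12 largest differences in favour of HAB mice, with probe 15969 at 1.53 ± 0.28. Its ratios were 1.11, 1.58, 1.89, 1.47 and 1.35 with HAB in Cy3, and 2.01, 1.52, 1.69, 1.35 and 1.28 with the dyes swapped, so that the orientations overlapped throughout. Its level was 11.49 ± 0.47 in HAB and 9.96 ± 0.37 in LAB mice (limma adjusted p = 0.000299). The other 3 Syt4 probes were not counted and stood at 0.60 ± 0.61, -0.11 ± 0.45 and, for the brightest by its SON level, -0.19 ± 0.31. The probe at 0.60 split by dye, with 0.97 to 1.31 for HAB in Cy3 but -0.20 to 0.32 for the swapped arrays. Sumo2, a ubiquitin-like protein modifier, stood at 1.50 ± 0.70 on probe 24094, with LAB above the empty spots on 5 of 10 arrays. These were 5 of 5 arrays with LAB in Cy3 and 0 of 5 with LAB in Cy5. The other Sumo2 probe was near the empty spots and stood at 0.00 ± 0.95.

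**Figure D1:**
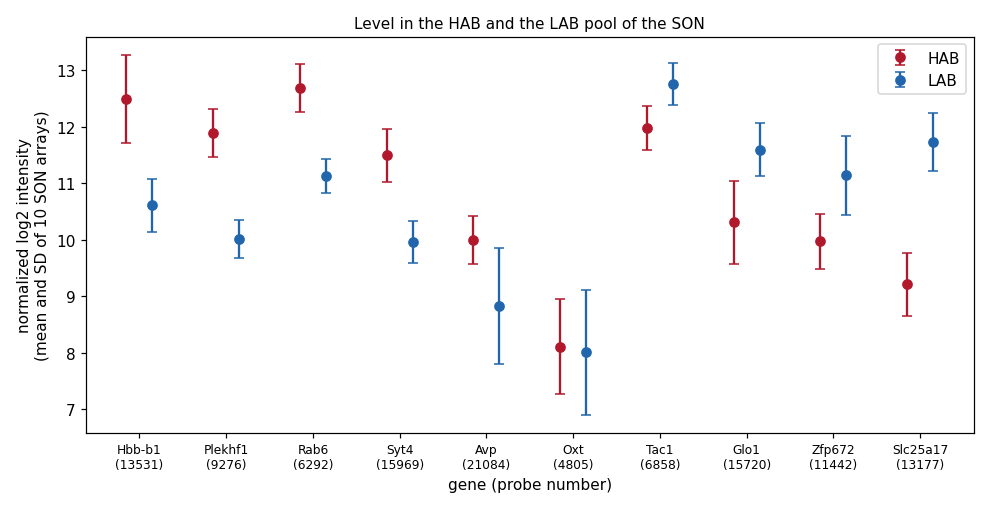
Normalized log2 intensity (y axis) of 10 named probes (x axis, probe numbers in brackets) in the HAB pool (red, left of each pair) and the LAB pool (blue, right), as mean and SD of 10 SON arrays. Slc25a17 has the widest distance, 9.21 in HAB and 11.73 in LAB mice, while both Oxt values lie near 8.

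Slc25a17, a carrier of the peroxisomal membrane, had the largest difference of all probes. Its probe 13177 stood at -2.53 ± 0.49, a 5.76-fold lower signal in HAB mice. With HAB in Cy3 the ratios were -2.62, -2.81, -1.74, -2.56 and -2.52, and with the dyes swapped they were -3.53, -2.08, -2.88, -2.28 and -2.24. No array came near 0. The level was 9.21 ± 0.55 in HAB and 11.73 ± 0.51 in LAB mice (limma adjusted p = 5.25e-06), and HAB mice were above the empty spots on 6 arrays, LAB mice on 10. The second Slc25a17 probe (12156) stood at -0.10 ± 0.71 and passed the empty spots on 7 arrays in HAB and 8 in LAB mice.

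Mff, a receptor for mitochondrial fission that the array lists as 5230400G24Rik, was lower in HAB mice on 2 of 3 probes, at -1.31 ± 0.70 (probe 12630) and -0.89 ± 0.32 (probe 14833). The third, near the empty spots, stood at 0.20 ± 0.65. Glo1, the glyoxalase that detoxifies methylglyoxal, was counted on 1 of 5 probes, at -1.28 ± 0.59 (probe 15720), where single arrays ran from -2.19 over a median of -1.19 to -0.32. All 5 probes had negative means, the others at -1.05 ± 0.66, -0.74 ± 0.79, -0.46 ± 0.74 and -0.39 ± 0.45, the last being the brightest. Zfp672, a zinc finger protein, stood at -1.17 ± 0.49 with a level of 9.97 ± 0.48 in HAB and 11.14 ± 0.70 in LAB mice (limma adjusted p = 0.012). Slc25a17, Glo1, Zfp672 and Mff probe 12630 were the 4 lower probes that limma called.

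Tac1, the precursor of substance P and neurokinin A, was the only neuropeptide gene counted, and its SD was among the smallest of the named probes. With HAB in Cy3 the ratios were -0.94, -0.94, -1.23, -0.53 and -0.59, and with the dyes swapped they were -0.88, -0.69, -0.58, -0.71 and -0.84. The arrays lay close together in both orientations, at a mean of -0.79 ± 0.22. Its level was 11.97 ± 0.39 in HAB and 12.76 ± 0.37 in LAB mice, and the limma adjusted p of 0.108 missed the threshold.

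The remaining large differences in favour of LAB mice were smaller than 2-fold and none was called by limma. Among them were Ccdc104 (current symbol Cfap36) at -0.87 ± 0.55, Ogfod3 at -0.84 ± 0.82, AI851115 at -0.77 ± 0.25, an ADP-ribosylation-like factor 6 interacting protein at -0.72 ± 0.33 and Ccdc88a, an actin-binding protein, at -0.72 ± 0.50. A second AI851115 probe was also counted, at -0.58 ± 0.31. The other probes of Ccdc104 (0.09), Ogfod3 (0.00) and Ccdc88a (0.02, -0.35 and -0.40) were not counted. Cfap36 and Ccdc88a lie close together on chromosome 11 of the RefSeq table (GRCm38.p6), with 3 gene models starting between them. Of the 7557 probes with a chromosome there, 72 were counted (0.953%), from 0% on chromosome 12 to 2.29% on chromosome 6 (9 of 393), with 1.66% on chromosome 7 (9 of 543).

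**Figure D2:**
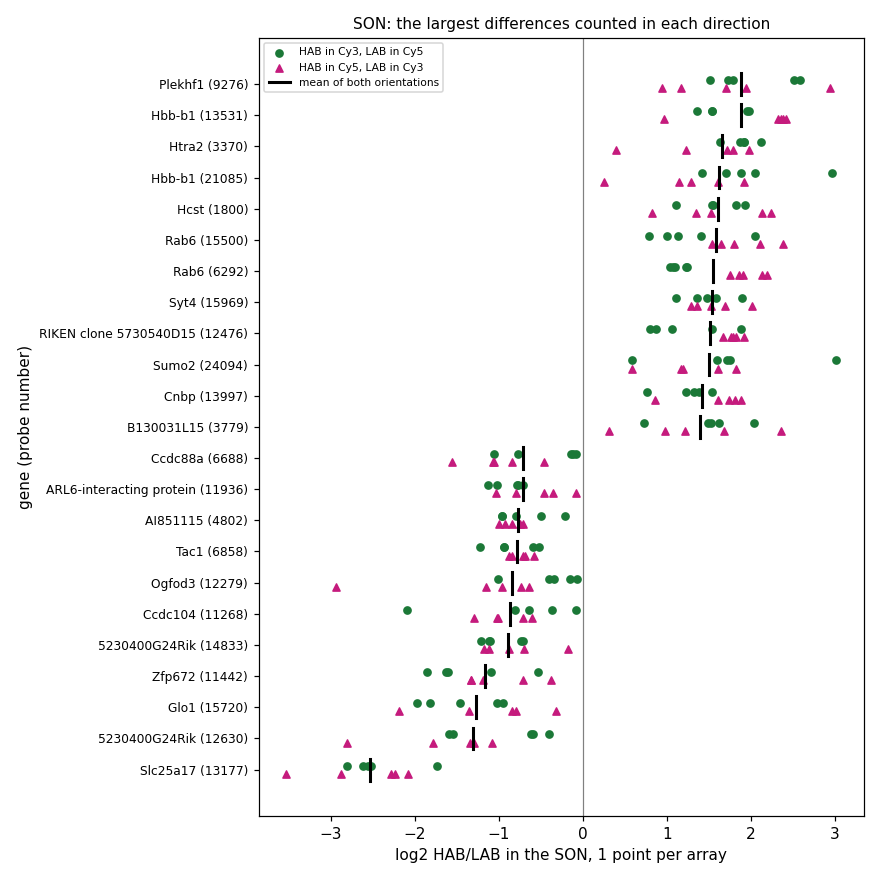
Log2 HAB/LAB (x axis) on each SON array for the largest differences counted in each direction, 12 higher and 11 lower in HAB mice (y axis, probe numbers in brackets), with green circles for arrays with HAB in Cy3, pink triangles for arrays with HAB in Cy5 and a bar for the mean. All 10 points of a probe lie on 1 side of 0, from -3.53 for Slc25a17 to 3.01 for Sumo2.

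Vasopressin differed between the pools by an amount that depended on the dye. Avp stood at 1.17 ± 1.22, with 8 of 10 arrays in favour of HAB mice, and was not counted (limma adjusted p = 0.0937). With HAB in Cy3 the ratios were 1.70, 2.94, 1.05, 1.58 and 3.07, and with the dyes swapped they were -0.46, 0.28, 0.42, 1.38 and -0.27. The first group lay above 1 on every array, while the second spread around 0. HAB mice were above the empty spots on all 10 arrays. LAB mice were above them on 5 of 5 arrays in Cy3 and on 0 of 5 in Cy5. The level was 10.00 ± 0.42 in HAB and 8.83 ± 1.03 in LAB mice. Oxt lies next to Avp on chromosome 2 and stood at 0.10 ± 0.72 near the empty spots, so that a difference was not detectable at this signal.

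The other peptides of magnocellular and neighbouring neurons showed no counted difference. Cartpt, the precursor of the appetite peptide CART, stood at 0.43 ± 0.89, with a mean of 1.21 for HAB in Cy3 but -0.34 for the swapped arrays, a split by dye like that of Avp. Npy, which encodes neuropeptide Y, stood at 0.31 ± 0.76, where 1 array reached 2.42 and the other 9 lay between -0.22 and 0.28. Pdyn, the precursor of the dynorphins that vasopressin neurons release beside vasopressin, stood at 0.22 ± 0.60. Nts, the neurotensin gene, stood at -0.24 ± 0.40 with 8 of 10 arrays in favour of LAB mice. Of 17 measured peptide genes, 12 were above the empty spots, 0 were counted as higher and 1 (Tac1) as lower, and their median was 0.02. Adcyap1, Apln, Nmb, Penk, Sst and Trh lay between -0.15 and 0.19.

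**Figure D3:**
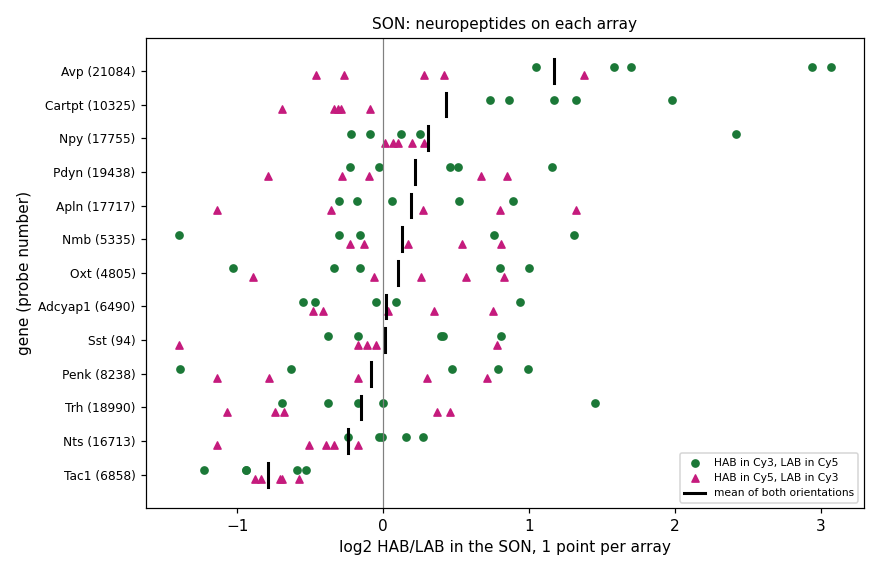
Log2 HAB/LAB (x axis) on each SON array for the neuropeptide genes (y axis, probe numbers in brackets), with green circles for arrays with HAB in Cy3, pink triangles for arrays with HAB in Cy5 and a bar for the mean. Avp and Cartpt split by orientation (Avp 2.07 and 0.27, Cartpt 1.21 and -0.34), while all 10 Tac1 points lie below 0.

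No gene was counted in the lists of the machinery by which magnocellular neurons make and release their hormones. In the list of the secretory pathway and the unfolded protein response 0 of 35 measured genes were counted, although 26 had a mean above 0 (74.3%, against 49.8% of all named genes) and the median was 0.08. Rpn1, a subunit of the enzyme that glycosylates new proteins, stood at 0.56 ± 0.30 and Hspa5, the main chaperone of the endoplasmic reticulum, at 0.43 ± 0.39, each with 9 of 10 arrays in favour of HAB mice. The levels of both were highest in the SON of the 7 regions, by 1.41 and 1.48. None of the 18 granule genes was counted (median -0.01), and Scg2, a granin of secretory granules, stood at -0.32 ± 0.51. None was counted among 15 receptors (median -0.05), 5 transcription factors (-0.04) or 18 ion channels (-0.01). Of these, 7 receptors, 4 transcription factors and 13 channels were above the empty spots in either line. The 20 immediate early genes had none counted and a median of 0.01, with medians of -0.18 for HAB in Cy3 but 0.25 for the swapped arrays. Only 6 of the 20 were above the empty spots in either line, with a median of 0.21, so most of this list lay near the floor.

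Among genes of the response to osmotic stress 1 of 17 was counted, as higher in HAB mice, where 0.612% of all named genes were. Slc6a6, the taurine transporter, stood at 0.75 ± 0.23, between 0.33 and 1.03 on single arrays. Its level was 10.01 ± 0.31 in HAB and 9.26 ± 0.38 in LAB mice, and LAB mice were above the empty spots on 6 of 10 arrays. The second Slc6a6 probe went the other way, at -0.46 ± 0.76, and was not counted. In the list of GABA and glutamate input 1 of 26 genes was counted in the same direction, Grin1, a subunit of the NMDA receptor, at 0.84 ± 0.54, but it passed the empty spots on only 3 arrays in HAB and 2 in LAB mice.

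Single genes of myelin were counted. Mbp, the myelin basic protein, was counted on its brightest probe (10632) at 0.73 ± 0.32, with a level of 14.70 ± 0.43 in HAB and 13.97 ± 0.24 in LAB mice, and on a second probe at 0.46 ± 0.17. Its other 4 probes lay between -0.37 and 0.49. Aspa, the enzyme that cleaves N-acetylaspartate in oligodendrocytes, was counted at 0.48 ± 0.32. Of other abundant myelin genes, Cnp stood at -0.23 ± 0.49 and Mobp at -0.41 ± 0.43. The 22 measured oligodendrocyte genes had 2 counted as higher (0.612% of all named genes were counted in this direction) and a median of 0.16, which was 0.23 with HAB in Cy3 but -0.06 on the swapped arrays. The part of fibres from the optic tract in these values was not tested.

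Other cell types showed single genes at most. None of 19 astrocyte genes was counted (median 0.02), with Mlc1, a membrane protein of astrocyte end-feet, at 0.72 ± 0.43 and 9 of 10 arrays in favour of HAB mice. Kcnj8, a potassium channel of pericytes, was the 1 of 24 vessel genes counted, at 0.60 ± 0.31. None of 15 microglia genes was counted (median -0.10), nor any of 11 genes of choroid plexus and ependyma (0.14), 19 of neighbouring forebrain neurons (-0.05) or 15 of the neighbouring hypothalamus (-0.01). In that order, 9, 4, 11 and 7 of these genes were above the empty spots in either line.

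Of 76 measured ribosomal proteins 2 were counted, both as higher in HAB mice, Rpl10a at 0.99 ± 0.45 and Rpl29 at 0.72 ± 0.51. Both encode proteins of the large ribosomal subunit. Rpl29 passed the empty spots on only 6 of 10 arrays in HAB and 1 in LAB mice. A second Rpl10a probe (2484) ran from -0.87 to 1.03 on single arrays and was not counted. The mean was above 0 for 57 of the 76 genes (75%, against 49.8% of all named genes), and the list median was 0.17. The list median on single arrays ran from -0.07 to 0.37 and was above 0 on 8 of 10 arrays, but it was 0.34 with HAB in Cy3 and 0.01 on the swapped arrays. In oxidative phosphorylation 1 of 67 genes was counted, Cox8a, a subunit of cytochrome c oxidase, at 0.95 ± 0.68, and the median was 0.01.

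**Figure D4:**
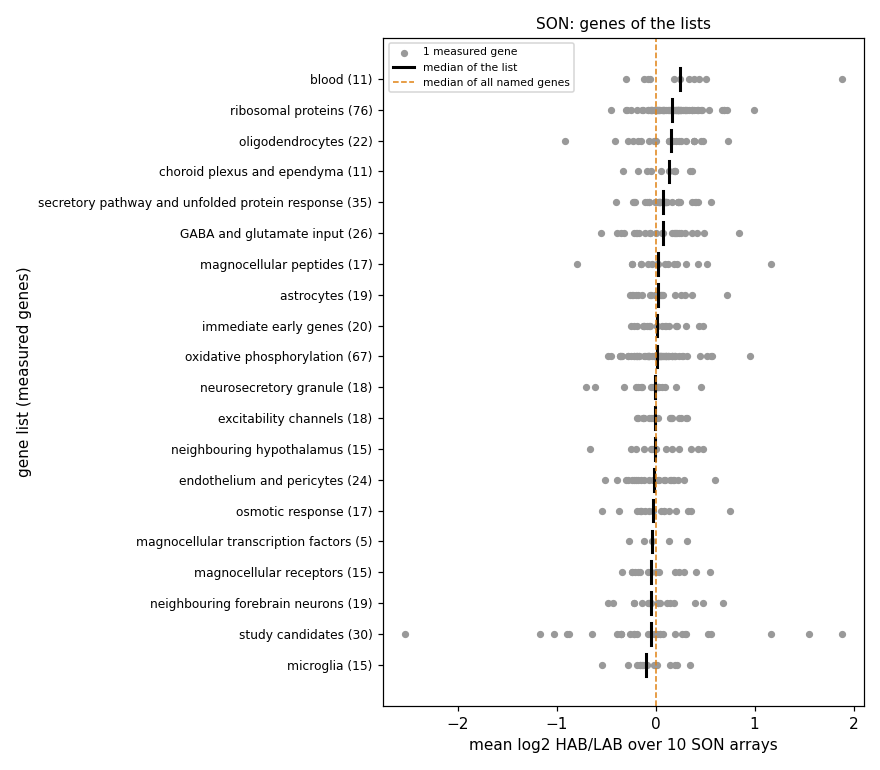
Mean log2 HAB/LAB over 10 SON arrays (x axis) of each measured gene, as grey points, in 20 gene lists (y axis, number of measured genes in brackets), with a black bar for the list median and a dashed line for the median of all 5229 named genes. List medians lie between -0.10 (microglia) and 0.25 (blood), while the study candidates reach from -2.53 to 1.88.

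The list of genes that the study followed up, together with a few named from earlier work on these lines, was chosen in part on these arrays, so its counts are no independent evidence. Of 30 measured, 2 were counted as higher (Hbb-b1 and Rab6) and 5 as lower (Slc25a17, Zfp672, Mff, Ccdc104 and Ctsb). Ctsb, the lysosomal protease cathepsin B, stood at -0.64 ± 0.39 on its brightest probe, with HAB above the empty spots on 1 and LAB on 6 of 10 arrays, and its 3 other probes lay between 0.12 and 0.27. Mmp15, a membrane-bound metalloproteinase, stood at -1.03 ± 0.92 with 9 of 10 arrays in favour of LAB mice and 1 HAB-in-Cy3 array at 1.12. Mt1, a metal-binding protein, stood at -0.35 ± 0.58 and Hmgn3, a nucleosome-binding protein, at 0.56 ± 0.59 and 0.57 ± 0.49 on 2 probes. The first Hmgn3 probe (18238) split by dye, with a mean of 0.99 for HAB in Cy3 but 0.14 for the swapped arrays. On that probe LAB mice passed the empty spots on 5 of 5 arrays in Cy3 and 0 of 5 in Cy5. The second (18883) ran from 0.44 to 1.13 for HAB in Cy3 and from -0.31 to 0.98 for the swapped arrays. Abca2, Enpp5, Enoph1, Gnaq, Mbnl1, Slc1a2, Smarcd3, Spnb3, Trib2 and Ttr lay between -0.35 and 0.30.

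To see which differences belong to the SON, its 10-array mean was set against the means of the other 6 regions. Each region is 1 pair of pools, and over these 7 values limma called 0 of 22824 probes at an adjusted p of 0.05 (0%, smallest adjusted p 0.849). Without adjustment 1296 probes (5.68%) had a p below 0.05, 636 with a higher ratio in the SON and 660 with a lower one. The same contrast over the 70 arrays, which compares pools by their array error, called 88 probes with a higher ratio in the SON (0.386%) and 28 with a lower one (0.123%). The probes named next were chosen for this difference, which is therefore given as a description.

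Many of the largest differences had the same sign in all 7 regions, among them those of Slc25a17, Zfp672, Glo1, Mff, Ccdc104, Rab6, Cnbp and the RIKEN clone. Zfp672 stood at -1.17 in the SON and between -1.22 and -0.95 elsewhere, an SON difference of -0.12 (95% interval -0.58 to 0.34). Slc25a17 had its lowest ratio in the SON, at -2.53 against -2.09 to -1.35 in the other regions. Rab6 probe 6292 stood at 1.55 in the SON, 0.94 in the PVN and 2.04 to 2.87 in the other 5 regions, and Rab6 probe 15500, Cnbp and the RIKEN clone likewise had their 2 lowest ratios in the PVN and the SON. Of the 127 probes counted in the SON, 28 (22%) had the same direction in all 7 regions, against 491 of all probes (2.15%).

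Of the 12 probes with the largest differences in favour of HAB mice, 7 had a higher ratio in the SON than in any other region, the 6 of the group of Plekhf1 and beta-globin and Syt4 probe 15969. Hbb-b1 probe 13531 stood at 1.88 in the SON, against 0.99 in the PVN and 0.34 to 0.83 in the other 5 regions, an SON difference of 1.21 (95% interval 0.70 to 1.73). Plekhf1 stood at 1.88, against 1.02 in the MeA, 1.01 in the PVN and 0.32 to 0.72 in the others, a difference of 1.17 (0.63 to 1.71). B130031L15 differed by 0.95 (0.45 to 1.44). These probes were picked for a large ratio in the SON, and the intervals are not adjusted for that choice. Limma over the 7 region means gave each an adjusted p of 0.849. All 6 probes of the group of Plekhf1 and beta-globin had positive means in every region. Syt4 probe 15969 changed sign between regions, with 1.53 in the SON, where all 10 arrays favoured HAB mice, 1.34 in the BLA, 0.89 in the CeA and -0.61 in the PVN, where all 10 favoured LAB mice. The brightest Syt4 probe (6751) did not share this pattern, with 2 of 10 arrays in favour of HAB mice in the SON and 8 of 10 in the PVN. Avp stood at 1.17 in the SON, 0.83 in the PVN and -0.21 to 0.45 in the other 5 regions.

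**Figure D5:**
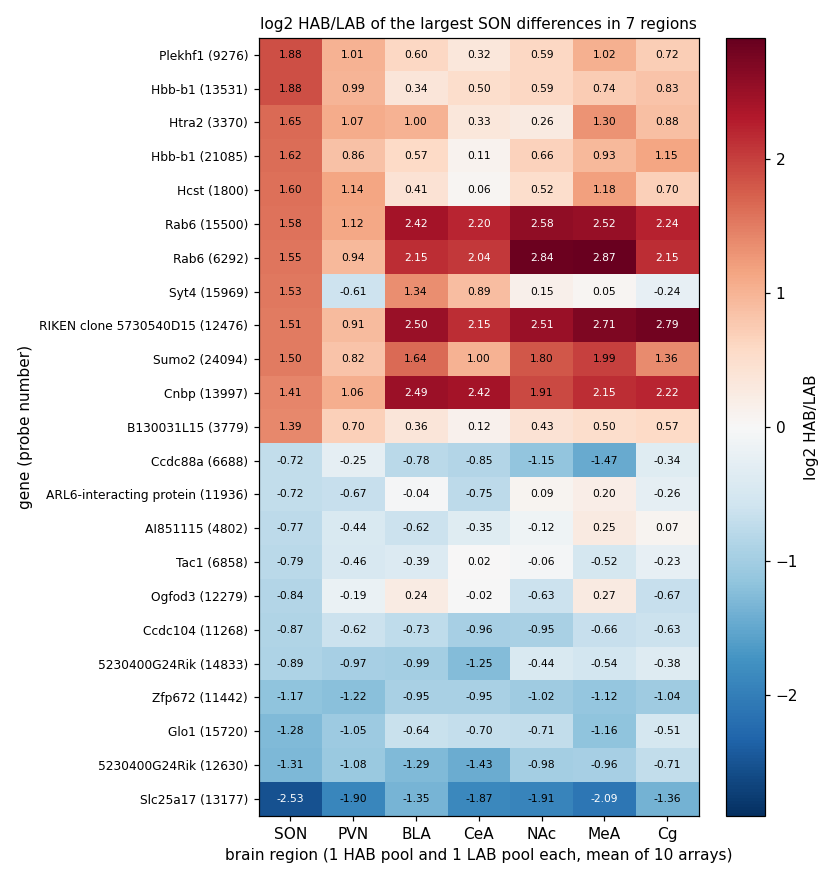
Mean log2 HAB/LAB (colour and number in each cell, red for higher and blue for lower in HAB mice) of the largest SON differences, 12 higher and 11 lower in HAB mice (y axis, probe numbers in brackets) in the SON and the 6 other regions (x axis), each the mean of 10 arrays. Plekhf1 and Hbb-b1 probe 13531 are highest in the SON (1.88), Rab6, Cnbp and the RIKEN clone are lower there and in the PVN than elsewhere, and Syt4 probe 15969 is negative in the PVN (-0.61).

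Further probes were chosen for the distance of their ratio in the SON from that in the other regions. In favour of HAB mice these were Cgref1, a secreted calcium-binding protein, at 0.94 ± 0.66 against -0.12 to 0.25 in the other regions, Epb41l1, a cytoskeletal protein of neurons, at 0.77 ± 0.57 against -0.50 to 0.09, and Tcaf1, a TRP channel-associated factor, at 0.76 ± 0.74 against -0.12 to 0.05. Epb41l1 and Tcaf1 were counted, while Cgref1 had 9 of 10 arrays in favour of HAB mice. The 4 other Epb41l1 probes lay between -0.59 and 0.05 and the 4 other Tcaf1 probes between -0.04 and 0.29. In favour of LAB mice they were MGC38812 (-0.94 ± 0.89), Hrct1 (-0.93 ± 1.21), Zfp238 (current symbol Zbtb18, -0.74 ± 0.54), AI835749 (-0.70 ± 1.39), Sgo2a (-0.67 ± 1.01) and an unnamed expressed tag, probe 20163 (-0.65 ± 0.66), against -0.16 to 0.53 in the other regions. Of these 6, probe 20163 alone was counted. A second, brighter Zfp238 probe (18617) ran from 0.34 to 0.96 with HAB in Cy3 and from -1.18 to 0.11 on the swapped arrays. Tac1 stood at -0.79 in the SON and -0.52 to 0.02 elsewhere, and Rpl10a at 0.99 and 0.03 to 0.54.

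Counted probes were shared with other regions to a varying degree. Of the 127 SON probes, 75 (59.1%) were counted in no other region in the same direction, 24 (18.9%) in 1, 13 (10.2%) in 2 and 5 (3.94%) in all 6. Taking all 22824 probes in the direction of their SON mean, 22105 (96.8%) were counted in no other region, 578 (2.53%) in 1, 109 (0.478%) in 2 and 5 (0.0219%) in all 6. With the NAc 32 probes were shared, 25.2% of the SON's and 7.03% of the 455 of the NAc, and with the PVN 22, which is 17.3% of the SON's and 13% of the 169 of the PVN. With the BLA 11 were shared, 8.66% of the SON's and 21.6% of the 51 of the BLA. The shares of the SON's probes counted in the CeA, MeA and Cg were 9.45%, 13.4% and 20.5%. Of all probes, counted or not in the SON, the share counted with the direction of the SON mean was 0.53% in the PVN, 0.166% in the BLA, 0.421% in the CeA, 1.55% in the NAc, 0.324% in the MeA and 1.06% in the Cg. In either direction these regions had 0.74% (PVN), 0.223% (BLA), 1.02% (CeA), 1.99% (NAc), 0.587% (MeA) and 1.58% (Cg) of all probes counted. Over all probes the SON ratios correlated with those of single regions at r = 0.01 (CeA) to 0.12 (NAc), and at 0.03 to 0.18 over the 12362 probes above the empty spots in the SON.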

How the data were processed

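The authors hybridized amplified RNA (2 rounds) to a spotted cDNA array of 24192 spots and deposited scanner intensities, without normalization, for each of 70 arrays. They also deposited a table of log2 ratios, normalized by loess. Its columns are centred (medians -0.00701 to 0.0109), and they correlate with log2 HAB/LAB of the intensities at r of 0.861 or more, so that the table runs as HAB over LAB. It holds 8451 values per SON array and served as an alternative. The dye of 3 channels was read from image names. Controls and empty spots (1368) were dropped, which left 22824 probes. Of these, 638 were named by gene name, 6919 by identifier in RefSeq's table (GRCm38.p6) and the others by the array.

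Intensities were corrected with normexp (offset 50), smoothed by loess over 40% of the spots and centred on each of 48 print-tip blocks with limma 3.58.1 in R 4.3.3. Levels were set between arrays with Aquantile. Median raw intensities of SON arrays were 249 to 754 for HAB and 237 to 526 for LAB mice, 119 to 248 for empty spots, and at most 16 spots were saturated. The number of arrays limits the precision. Limma over arrays fitted the line and the dye. The region test set the SON against 6 region means. Scripts were tested on simulated data.

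Named were the 12 largest counted probes per direction above the empty spots in the higher line, all measured magnocellular peptides, blood genes and study candidates above them in either line, Avp and Oxt in any case, the 3 largest of each other list, the 6 probes per direction with the smallest region p, and further probes of these genes. A few others, such as Grin1, Cnp, Mobp and Hba-a1, were named after their values were seen. The brightest probe stands for a gene. Some genes that this rule names are not reported here. Members and lists were chosen with earlier results of these data known.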

Additional observations from a re-analysis of the deposited data

Results flagged for a closer look

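Among the 5 arrays of 1 dye orientation, 1 array lay far from the other 4 in 16 of 228 groups of named probes, by a test that flags about 1 in 20 groups by chance. With HAB in Cy3 the outlying values were 2.42 for Npy (others -0.22 to 0.25), 2.21 for Trib2 (-0.83 to -0.20), 1.70 for Egr3 (-0.48 to -0.01), 1.65 for Cox8a (0.38 to 0.48), 1.12 for Mmp15 (-1.24 to -0.56), 1.05 for Ttr (0.32 to 0.50), 0.57 for Adcyap1r1 (-0.63 to -0.37), -1.06 for Zic1 (0.40 to 0.61), -1.74 for Slc25a17 (-2.81 to -2.52) and -4.39 for AI835749 (-0.63 to 0.75). With HAB in Cy5 they were 1.21 for Mbnl1 (0.02 to 0.21), 0.96 for Hbb-b1 probe 13531 (2.32 to 2.42), 0.85 for Cnbp probe 13997 (1.61 to 1.88), -1.40 for Cldn2 (0.33 to 0.88), -2.24 for Gnaq (highest of the others -0.50) and -2.94 for Ogfod3 (-1.16 to -0.64).

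Syt4 probe 15969 went opposite ways in 2 regions, with a mean log2 HAB/LAB of 1.53 in the SON and -0.61 in the PVN, all 10 arrays of each agreeing in direction. This pair was not tested on its own. The brightest Syt4 probe (6751) did not share the pattern, with 2 of 10 arrays in favour of HAB mice in the SON and 8 of 10 in the PVN.

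Over the 70 arrays limma called a difference between the SON and the mean of the other 6 regions for the named probes given here. It compares pools by array error, and over the 7 region means none was called. The difference was above 0 for Syt4 probe 15969 (1.26), Hbb-b1 (1.21 on probe 13531, 0.90 on probe 21085), Plekhf1 (1.17), B130031L15 (0.95), Hcst (0.93), Epb41l1 (0.91), Cgref1 (0.88), Htra2 (0.85), Tcaf1 (0.82), Rpl29 (0.79), Slc6a6 (0.79), Rpl10a (0.74), Mbp (0.63) and Gabbr1 (0.50). It was below 0 for MGC38812 (-1.10), Hrct1 (-1.01), Sgo2a (-0.85), the expressed tag of probe 20163 (-0.80), Slc25a17 (-0.78), the RIKEN clone 5730540D15 (-0.75), Cnbp (-0.63), AI851115 (-0.57) and Tac1 (-0.52).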

How the results depend on the processing

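The count of 127 probes was 90 with median centring only, 101 without the block median (50 higher, 51 lower), 106 in the authors' table and 121 to 137 under no background correction, an offset of 10 and print-tip loess. It was 113 among probes above the empty spots and 75 at 1.5-fold. With at least 9 of 10 arrays in 1 direction 551 probes passed. Over 5 arrays of 1 orientation 2521 (HAB in Cy3) and 2463 (HAB in Cy5) passed. There fewer arrays had to point the same way, and a dye effect of a probe was not averaged out. Leaving out each array gave 163 to 187, and 16 to 22 for limma's 18 calls. Limma called 31 probes without background correction, 93 in the authors' table, 41 among probes above the empty spots, 13 with an offset of 10 and 19 to 27 with other normalizations. With the replicate number as a block it called 15. The numbers do not pair the arrays: deviations of same-numbered arrays correlated at 0.00 to 0.02. The region test called 0 probes under every alternative, each region or array left out included. Over all 20 lists 17 genes were counted, 12 with the mean of all probes of a gene and 16 among members above the empty spots. The median of the neighbouring hypothalamus list was -0.01 and was 0.24 over its 7 members above the empty spots. Of the 35 named probes that were counted or called, none changed direction under the alternatives run. This was fixed in advance where arrays were left out or 1 orientation was used, since all 10 arrays of a counted probe point the same way. Only the other normalizations and the authors' table could have turned a sign. Blocks by scan day were not run, since the SON arrays share 1 scan day. Signals near the empty spots limit Oxt, Ctsb, Rpl29 and the LAB values of Avp, Hmgn3 probe 18238 and Sumo2 probe 24094 in Cy5.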
